A study of Arabidopsis thaliana with 9 samples.

Results

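The 8 root hair differentiation genes described here are *RHD6* (AT1G66470), *RSL4* (AT1G27740), *EXPA7* (AT1G12560), *EXPA18* (AT1G62980), *COBL9* (AT5G49270), *LRX1* (AT1G12040), *PRP1* (AT1G54970) and *PRP3* (AT3G62680). They were chosen by name and identifier, not by their values, from 33602 genes in the count table, though earlier results of these data were known. RNA was sequenced from whole seedlings of *Arabidopsis thaliana* in the Col-0 ecotype, aged 8 days, from 3 *bdr1,2,3* libraries (replicates 2, 4 and 7), 3 *fpa* libraries (replicates 3, 6 and 8) and 3 wild-type libraries (replicates 1, 12 and 5). In *bdr1,2,3*, T-DNA insertions disrupt the 3 *BORDER* genes *BDR1* (AT5G25520), *BDR2* (AT5G11430) and *BDR3* (AT2G25640), combined by crossing single mutants. The *fpa* seedlings carry the *fpa-7* allele of *FPA* (AT2G43410), which encodes an RNA-binding protein of the autonomous flowering pathway. Growth was on MS plates at 21 °C per the labels, after 4 days of stratification and with nights of 8 h. The samples are mixtures of root and shoot, so hair cells are a small part of the tissue, and each mutant is represented by 1 line. Within each value given below, libraries follow the order of replicates above.

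Root hairs are outgrowths of single epidermal cells of the root. The bHLH transcription factor RHD6 acts in the hair cell file to start a hair, and RSL4, a related factor that acts after it, drives the elongation of the hair. The other 6 genes encode proteins of the hair cell wall or surface: EXPA7 and EXPA18 are expansins, which loosen the wall, COBL9 is a COBRA-like protein with a membrane anchor, LRX1 is a chimera of leucine-rich repeats and extensin, and PRP1 and PRP3 are proline-rich structural proteins. Many genes of this group carry in their promoter a short sequence called the root hair element, through which the RSL factors act on their targets.

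The promoter sequences are shown because the root hair element is a feature that most of these genes share. In the RefSeq annotation of TAIR10.1, a window of 250 bases before and 50 after each annotated start was searched on both strands for the core of the element (TGNNNGCACG, TGNNNTCACG, TGNNNNGCACG or TGNNNNTCACG) and for its full consensus, which adds flanking bases on both sides. The 250 bases before the start of *EXPA7* (chr1:4276255-4276504, plus strand) hold the core 2 times, in capitals.

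*EXPA7*: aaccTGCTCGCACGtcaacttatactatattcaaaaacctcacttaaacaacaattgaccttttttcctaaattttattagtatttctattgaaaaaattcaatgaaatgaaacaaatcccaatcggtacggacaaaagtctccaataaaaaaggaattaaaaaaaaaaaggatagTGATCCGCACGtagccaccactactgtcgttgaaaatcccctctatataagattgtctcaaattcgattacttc

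Single matches of the core are shown with the bases around them, read on the strand that carries the motif and with the core in capitals.

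*EXPA7*, 74 bases before the start (chr1:4276421-4276451, plus strand): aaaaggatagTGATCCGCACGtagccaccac
*EXPA18*, 36 bases before the start (chr1:23331517-23331546, plus strand): aaaacaaacaTGAACGCACGtccattactt
*COBL9*, 47 bases before the start (chr5:19974557-19974587, minus strand): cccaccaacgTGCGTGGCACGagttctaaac
*LRX1*, 91 bases before the start (chr1:4069891-4069920, minus strand): tcctcaaactTGGACGCACGttcctagagg
*PRP1*, 127 bases before the start (chr1:20504764-20504794, minus strand): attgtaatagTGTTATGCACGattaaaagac
*PRP3*, 165 bases before the start (chr3:23182547-23182577, minus strand): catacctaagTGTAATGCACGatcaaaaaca

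The full consensus lay in the windows of 5 of the 8 genes (62.5%), namely *EXPA7*, *EXPA18*, *LRX1*, *PRP1* and *PRP3*, against 238 of 27443 windows of protein-coding genes (0.867%). The core alone lay in 6 of 8 windows (75%), with *COBL9* added, against 4.94% of all windows. In *EXPA7* and *EXPA18* the matches ran in the direction of the gene, whereas in *LRX1*, *PRP1* and *PRP3* they ran against it. The cores of *PRP1* and *PRP3* shared 10 of 11 bases. *LRX1* held a further core 247 bases before its start. *COBL9* held overlapping cores on both strands, and *EXPA18* held a further full match whose core began 9 bases into the transcribed part. The windows of the transcription factor genes *RHD6* and *RSL4* held no core, and the G-box (CACGTG) lay in none of the 8 windows, against 7.68% of all windows. The element was worked out on promoters that include those of *EXPA7* and *EXPA18*, so their matches are not independent of its definition. A match is a description of the sequence and does not show a bound site.

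**Figure D1:**
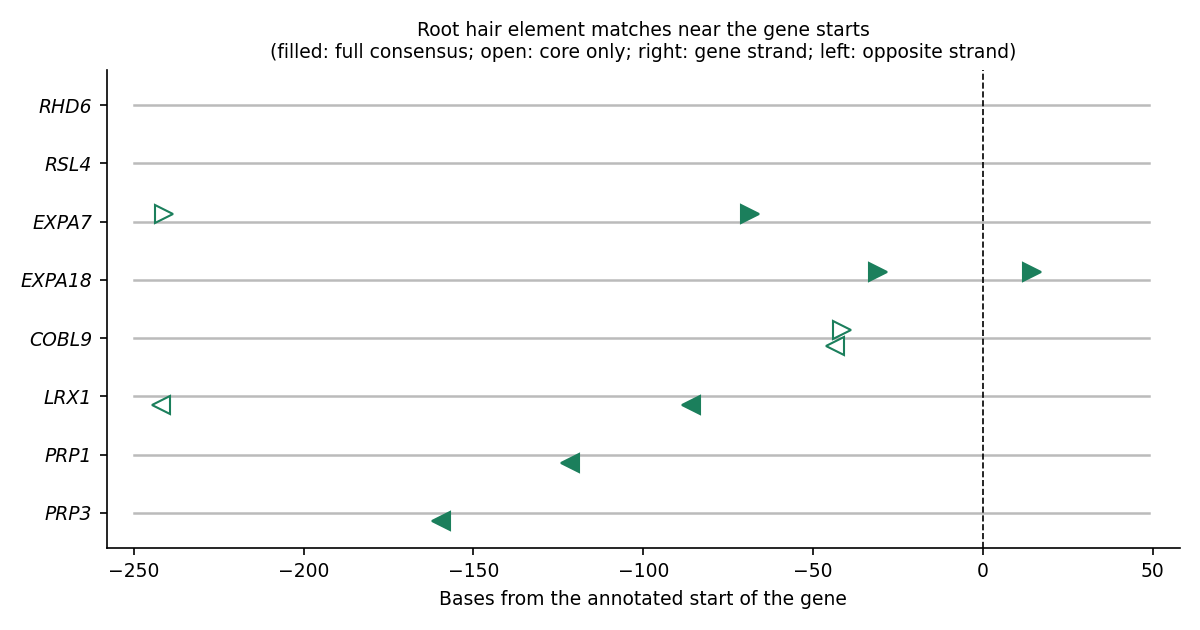
Matches of the root hair element in the windows of the 8 genes, plotted by their distance in bases from the annotated start (dashed line). Filled triangles are matches of the full consensus, open triangles hold the core alone, and triangles point right on the strand of the gene and left on the opposite strand. The cores of the wall genes begin between 247 bases before and 9 bases after the start, and *RHD6* and *RSL4* carry none.

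Library totals ran from 8676610 to 26861793 counts, and the 8 genes together took 473 to 1843 counts per library. The shallowest library, wild-type replicate 12, also stood apart in other ways: its scaling factor (TMM) was 0.813 where the others had 0.997 to 1.07, and its summed level of 10 shoot markers was 464 CPM (counts scaled to a common library total with TMM factors), against 296 to 332 CPM in the other 8 libraries. Of 21 markers of other root cell types 20 had counts in every library, as did 9 of the 10 shoot markers, so both organs were represented. *BDR1* (AT5G25520) fell to 1.29 ± 0.575 CPM in *bdr1,2,3*, against 37.4 ± 7.21 CPM in wild type (SD, n = 3 each). *BDR2* had 9.78 ± 1.32 CPM in *bdr1,2,3* and 17.5 ± 2.76 CPM in wild type (AT5G11430, log2 fold change -0.85, edgeR adjusted p = 0.0177), and *BDR3* had 5.81 ± 2.44 CPM in *bdr1,2,3* and 9.77 ± 3.06 CPM in wild type (AT2G25640, -0.76, edgeR adjusted p = 0.226). *FPA* had 41.5 ± 3.80 CPM in *fpa* and 54.1 ± 10.7 CPM in wild type (SD, n = 3 each), a log2 fold change of -0.39 with an adjusted p of 0.248 in edgeR. It was lower still in *bdr1,2,3*, at 37.5 ± 8.09 CPM (SD, n = 3; log2 fold change -0.53 against wild type, edgeR adjusted p = 0.172), so the lower level is not particular to *fpa*. A count per gene does not measure intact transcript, so it does not test the *fpa-7* allele or the *BDR3* insertion. Replicates differed beyond counting noise, and since the labels do not describe how replicate plants were grown, p-values measure the spread between these libraries.

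All 8 genes passed the filter on low counts, and none was called different from wild type in either mutant. The test was edgeR's quasi-likelihood test on the counts with a Benjamini-Hochberg adjusted p under 0.05 over 20413 genes. In *bdr1,2,3* against wild type 0 of 8 were called, where 2.48% of all genes tested were called, 0.603% as higher and 1.88% as lower. In *fpa* against wild type 0 of 8 were called, where 3.1% of all genes were called, 1.28% as higher and 1.82% as lower. At an unadjusted p under 0.05, edgeR gave 1 of 8 genes in each mutant, *RHD6* in both, where 15.1% of all genes passed that limit in *bdr1,2,3* and 19.8% in *fpa*. DESeq2 also called 0 of 8 in each mutant, where it called 4.02% of all genes in *bdr1,2,3* and 6.48% in *fpa*, and it gave 1 gene in *bdr1,2,3* and 2 in *fpa* at an unadjusted p under 0.05. Of 24813 genes in DESeq2, 3367 passed that unadjusted limit in *bdr1,2,3* and 4382 in *fpa*. In seedlings, a different number of hair cells and a different amount of RNA per hair cell cannot be told apart, here and in all values that follow.

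The 2 transcription factor genes were the least abundant of the 8 and had the largest log2 fold changes against wild type in both mutants. *RHD6*, the initiation factor, lies on chromosome 1 from 24795214 to 24797015 on the plus strand. It had 1.16, 3.50 and 3.51 CPM in *bdr1,2,3*, 2.94, 2.71 and 2.0 CPM in *fpa*, and 1.55, 0.993 and 0.822 CPM in wild type. All 3 *fpa* libraries lay above the 3 wild-type libraries, and in *bdr1,2,3* replicates 4 and 7 lay above them but replicate 2 lay within their range. The log2 fold change was 1.26 (SE 0.471, 95% interval 0.25 to 2.27, edgeR adjusted p = 0.219) in *bdr1,2,3* against wild type and 1.17 (SE 0.472, 95% interval 0.16 to 2.18, edgeR adjusted p = 0.188) in *fpa* against wild type. Both intervals lie above 0 before adjustment, and neither adjusted p passed. These values rest on 7 to 88 counts per library. Without *bdr1,2,3* replicate 2 the adjusted p in *bdr1,2,3* was 0.0849, the smallest of any of the alternatives for this gene. Leaving out that library gave a log2 fold change of 1.63 in edgeR, and leaving out *bdr1,2,3* replicate 4 gave 1.01. In *fpa* the extremes were 0.93 without wild-type replicate 5 and 1.52 without wild-type replicate 1.

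*RSL4*, the elongation factor, lies on chromosome 1 from 9654475 to 9656089 on the plus strand. It had 2.10, 1.51 and 1.17 CPM in *bdr1,2,3*, 2.49, 1.81 and 1.28 CPM in *fpa*, and 1.24, 0.142 and 0.896 CPM in wild type. The *fpa* libraries again lay above all wild-type libraries, whereas *bdr1,2,3* replicate 7 fell below wild-type replicate 1. The lowest value, in wild-type replicate 12, is a single count, and the other libraries had 17 to 49 counts. The log2 fold change was 0.92 (SE 0.535, 95% interval -0.23 to 2.07, edgeR adjusted p = 0.449) in *bdr1,2,3* and 1.12 (SE 0.535, 95% interval -0.02 to 2.27, edgeR adjusted p = 0.261) in *fpa*. Without wild-type replicate 12 the edgeR log2 fold change was 0.60 in *bdr1,2,3* and 0.80 in *fpa*, and without wild-type replicate 1 it was 1.33 in *bdr1,2,3* and 1.54 in *fpa*. At these counts the intervals allow anything from a fold near 1 to a fold above 4.

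**Figure D2:**
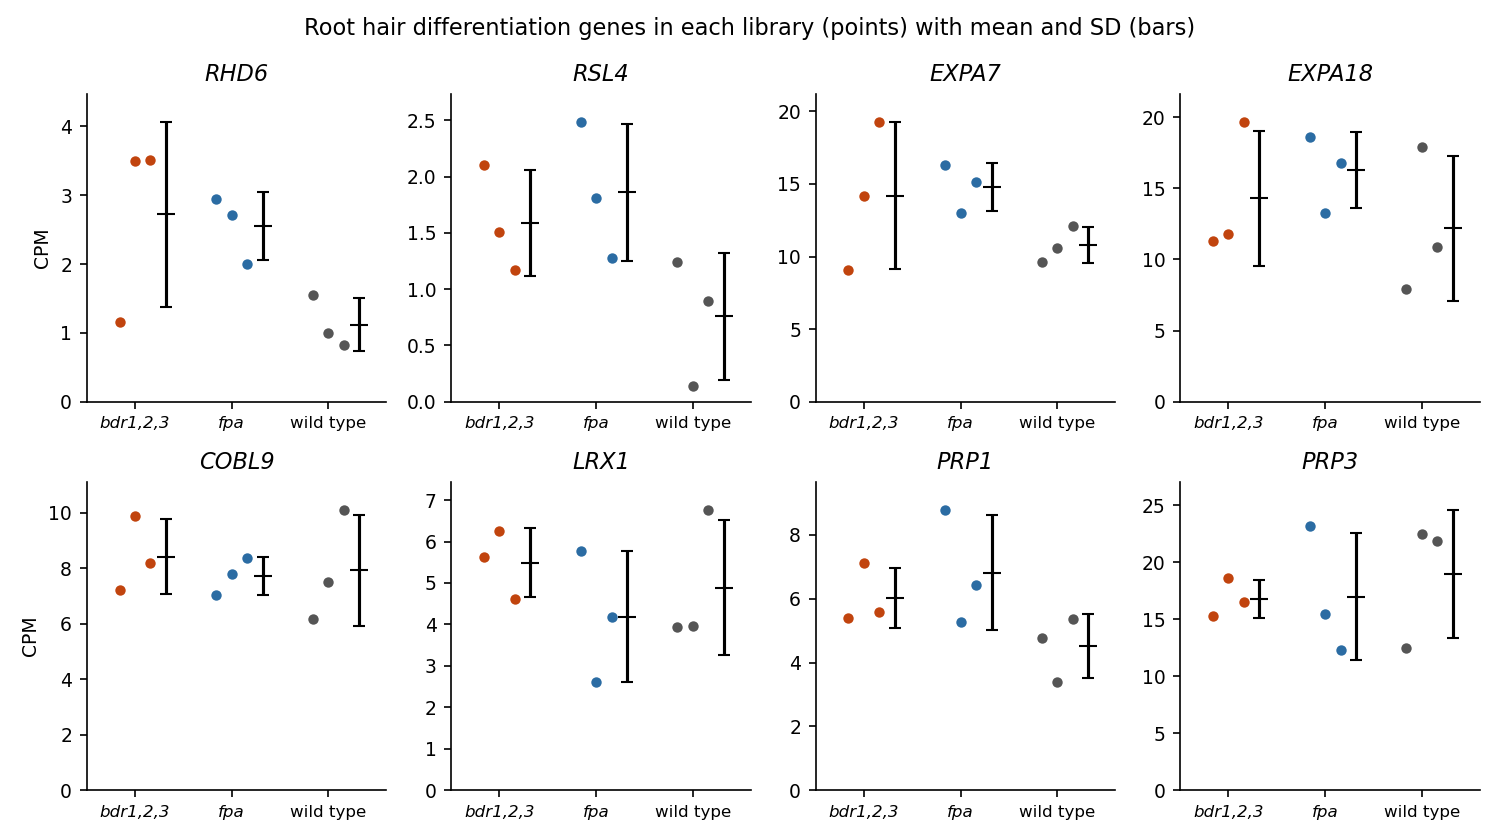
Level of each of the 8 genes (CPM, TMM-scaled, linear axes from 0) in each library, with *bdr1,2,3*, *fpa* and wild type from left to right; points are libraries and bars are mean and SD (n = 3). The *fpa* points lie above every wild-type point for *RHD6*, *RSL4* and *EXPA7*, and the *bdr1,2,3* points for *PRP1*, while the genotypes overlap in the other panels.

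Both expansin genes lie on the plus strand of chromosome 1, *EXPA7* from 4276505 to 4277969 and *EXPA18* from 23331563 to 23333246. *EXPA7* had 9.09, 14.2 and 19.3 CPM in *bdr1,2,3*, 16.3, 13.0 and 15.1 CPM in *fpa*, and 9.63, 10.6 and 12.1 CPM in wild type. The *fpa* libraries lay above all wild-type libraries, and the *bdr1,2,3* libraries spread from below to well above them. *EXPA18* had 11.3, 11.8 and 19.7 CPM in *bdr1,2,3*, 18.6, 13.3 and 16.8 CPM in *fpa*, and 7.92, 17.9 and 10.9 CPM in wild type. Here wild-type replicate 12 was the third highest of the 9 libraries, so both mutants overlapped wild type.

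The log2 fold change of *EXPA7* was 0.38 (SE 0.236, 95% interval -0.12 to 0.89, edgeR adjusted p = 0.478) in *bdr1,2,3* and 0.45 (SE 0.236, 95% interval -0.06 to 0.96, edgeR adjusted p = 0.312) in *fpa*. That of *EXPA18* was 0.26 (SE 0.283, 95% interval -0.35 to 0.86, edgeR adjusted p = 0.725) in *bdr1,2,3* and 0.45 (SE 0.282, 95% interval -0.15 to 1.06, edgeR adjusted p = 0.402) in *fpa*. Single libraries decided the values of both genes in *bdr1,2,3*. For *EXPA7* the edgeR log2 fold change there was 0.11 without *bdr1,2,3* replicate 7 and 0.62 without replicate 2. For *EXPA18* it was -0.04 without *bdr1,2,3* replicate 7, 0.01 without wild-type replicate 1 and 0.58 without wild-type replicate 12. In *fpa*, *EXPA18* stood at 0.21 without wild-type replicate 1 (edgeR adjusted p = 0.701) and at 0.78 without wild-type replicate 12. Without wild-type replicate 12, *fpa* against wild type had an adjusted p of 0.0971 in edgeR and of 0.0539 in DESeq2, both above the limit. Both genes had their highest value of the 9 libraries in *bdr1,2,3* replicate 7.

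Among the other wall genes, *PRP1* (chromosome 1, 20504901 to 20506504, plus strand) had 5.40, 7.12 and 5.57 CPM in *bdr1,2,3*, 8.78, 5.26 and 6.42 CPM in *fpa*, and 4.76, 3.40 and 5.38 CPM in wild type. Its *bdr1,2,3* libraries all lay above the wild-type libraries, though the lowest of them exceeded the highest wild-type value by little, and *fpa* replicate 6 lay inside the wild-type range. On the log2 scale the change was 0.39 (SE 0.264, 95% interval -0.18 to 0.95, edgeR adjusted p = 0.529) in *bdr1,2,3* and 0.56 (SE 0.263, 95% interval -0.01 to 1.12, edgeR adjusted p = 0.258) in *fpa*. It was 0.25 in *bdr1,2,3* without wild-type replicate 12 and 0.34 in *fpa* without *fpa* replicate 3. *PRP3* (chromosome 3, 23182722 to 23184042, plus strand), which encodes a related protein and was the most abundant of the 8 in wild type, had 15.3, 18.6 and 16.5 CPM in *bdr1,2,3*, 23.2, 15.5 and 12.3 CPM in *fpa*, and 12.5, 22.5 and 21.9 CPM in wild type. The mutant means were the lower ones here, within a wild-type spread that covered all *bdr1,2,3* libraries. Its log2 fold change was -0.17 (SE 0.249, 95% interval -0.70 to 0.37, edgeR adjusted p = 0.804) in *bdr1,2,3* and -0.15 (SE 0.249, 95% interval -0.69 to 0.38, edgeR adjusted p = 0.778) in *fpa*, and the *fpa* value was 0.03 without *fpa* replicate 8. In *bdr1,2,3* it ran from -0.40 without wild-type replicate 1 to -0.03 without wild-type replicate 5.

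*COBL9* (chromosome 5, 19971884 to 19974530, minus strand) had 7.21, 9.87 and 8.18 CPM in *bdr1,2,3*, 7.02, 7.81 and 8.37 CPM in *fpa*, and 6.16, 7.52 and 10.1 CPM in wild type. All mutant libraries lay within the wild-type range. Its log2 fold change was 0.08 (SE 0.226, 95% interval -0.40 to 0.56, edgeR adjusted p = 0.904) in *bdr1,2,3* and -0.04 (SE 0.227, 95% interval -0.53 to 0.44, edgeR adjusted p = 0.941) in *fpa*, so changes beyond about 1.5-fold lie outside both intervals. *LRX1* (chromosome 1, 4069992 to 4072681, plus strand, a single exon) had 5.62, 6.25 and 4.61 CPM in *bdr1,2,3*, 5.78, 2.6 and 4.19 CPM in *fpa*, and 3.93, 3.97 and 6.76 CPM in wild type. The *bdr1,2,3* libraries lay within the wild-type range, and *fpa* replicate 6 lay below it. Its log2 fold change was 0.14 (SE 0.316, 95% interval -0.53 to 0.82, edgeR adjusted p = 0.871) in *bdr1,2,3* and -0.25 (SE 0.321, 95% interval -0.94 to 0.43, edgeR adjusted p = 0.708) in *fpa*. Single libraries set the sign of both genes. The value of *COBL9* in *bdr1,2,3* was -0.09 without wild-type replicate 1 and -0.06 without *bdr1,2,3* replicate 4, and in *fpa* it was 0.19 without wild-type replicate 5 and 0.02 without *fpa* replicate 3. That of *LRX1* was -0.01 in *bdr1,2,3* without wild-type replicate 1 and 0.08 in *fpa* without wild-type replicate 5.

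**Figure D3:**
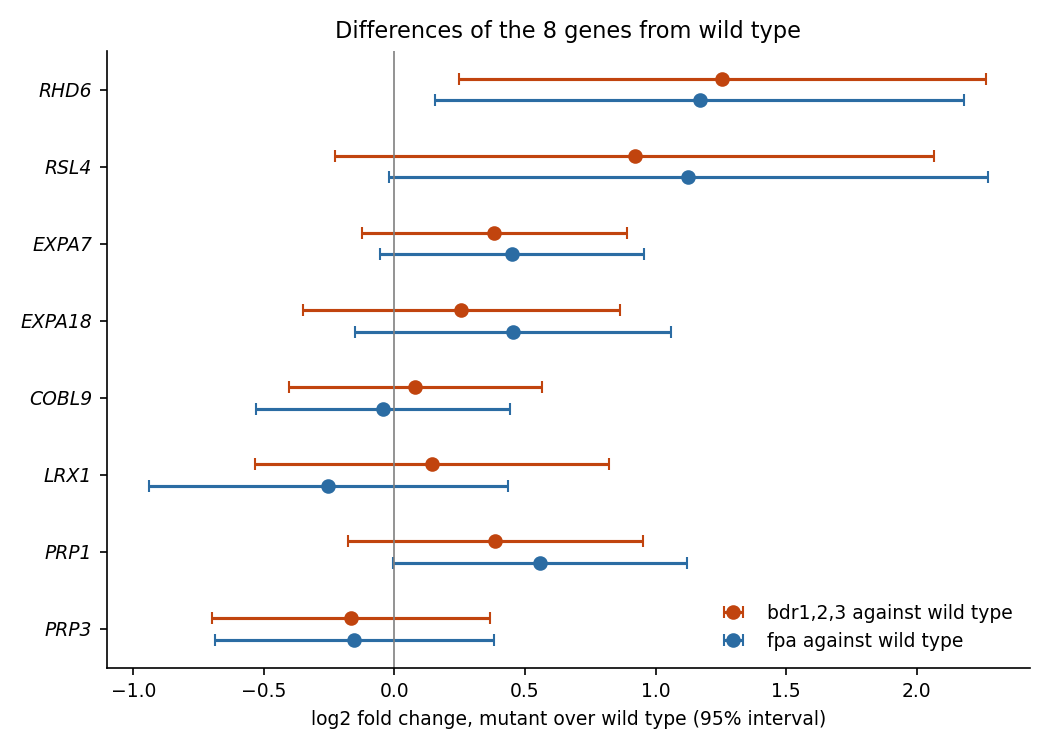
Log2 fold change of the 8 genes in *bdr1,2,3* (upper point of each pair) and *fpa* (lower point), each against wild type, with 95% intervals from edgeR before adjustment for multiple testing. The intervals of *RHD6* lie above 0, those of all other genes include 0, and the intervals of *RHD6* and *RSL4* are the widest.

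Across the list, 7 of 8 mean differences were positive in *bdr1,2,3* (median on the log2 scale 0.32) and 5 of 8 in *fpa* (median 0.45). The medians over all genes tested were 0.01 in *bdr1,2,3* and 0.00491 in *fpa*. Of all genes tested, 48.6% had a lower mean than wild type in *bdr1,2,3* and 49.5% in *fpa*, so the count in *fpa* is near the background. Both comparisons share the wild-type libraries, so their values are not separate evidence. Libraries that do not overlap were found for 1 of 8 genes in *bdr1,2,3* (*PRP1*, higher), where 9.45% of all genes had all 3 libraries above wild type, and for 3 of 8 in *fpa* (*RHD6*, *RSL4* and *EXPA7*, higher), where 13.3% did. Summed over the 8 genes, levels were 57.2, 72.8 and 78.5 CPM in *bdr1,2,3*, 85.1, 61.9 and 66.4 CPM in *fpa*, and 47.7, 67.1 and 68.8 CPM in wild type. These sums overlapped, with a mean 1.1 times that of wild type in *bdr1,2,3* and 1.2 times in *fpa*. The 21 other root markers summed to 276 ± 16.3 CPM in *bdr1,2,3*, 289 ± 24.4 CPM in *fpa* and 291 ± 11.2 CPM in wild type (SD, n = 3 each). Relative to them, the 8 genes stood at a ratio of 0.252 ± 0.0372 in *bdr1,2,3*, 0.246 ± 0.0315 in *fpa* and 0.209 ± 0.0329 in wild type (SD, n = 3 each). The lowest of the 9 ratios, 0.172, belonged to wild-type replicate 1, which had the lowest wild-type values of *EXPA7*, *EXPA18*, *COBL9*, *LRX1* and *PRP3*. The 10 shoot markers summed to 321 ± 6.40 CPM in *bdr1,2,3* and 317 ± 13.7 CPM in *fpa* (SD, n = 3 each). In wild type they summed to 357 ± 93.2 CPM (SD, n = 3). The paper reports short roots in seedlings of the *BORDER* mutant. How root length bears on these values, and the part of tissue makeup in them, were not tested.

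Compared directly, *bdr1,2,3* against *fpa*, 0 of 8 genes were called by edgeR, where 3.54% of all genes were, and 0 by DESeq2, where 4.97% were. Neither tool gave a gene at an unadjusted p under 0.05, which 14.9% of all genes passed in edgeR and 3289 of 24813 in DESeq2. The largest difference was that of *LRX1*, at 4.61 to 6.25 CPM in *bdr1,2,3* and 2.6 to 5.78 CPM in *fpa*, a log2 fold change of 0.40 (SE 0.316, 95% interval -0.28 to 1.07, edgeR adjusted p = 0.637). For *RHD6* it was 0.09 (95% interval -0.85 to 1.02) and for *RSL4* -0.21 (95% interval -1.28 to 0.87), so for both transcription factor genes a difference of 1.5-fold in either direction lies inside the interval. The sign for *RHD6* turned without *bdr1,2,3* replicate 4 (-0.16) or 7 (-0.12) or *fpa* replicate 8 (-0.06), and that for *RSL4* turned without *fpa* replicate 3 (0.06).

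Per length of exon (RPKM on the exon lengths of TAIR10.1), the 8 genes spanned a wide range in wild type. *PRP3* had 15.6 ± 4.59 RPKM, *EXPA18* 9.79 ± 4.08 RPKM and *EXPA7* 9.65 ± 1.09 RPKM (SD, n = 3 each). *COBL9* followed with 3.50 ± 0.881 RPKM, *PRP1* with 3.29 ± 0.736 RPKM and *LRX1* with 1.82 ± 0.602 RPKM, and *RHD6* (0.787 ± 0.268 RPKM) and *RSL4* (0.568 ± 0.421 RPKM) came last (SD, n = 3 each). Neighbors in this order overlapped between libraries except *EXPA7* over *COBL9* and *LRX1* over *RHD6*, so in wild type each wall gene stood above *RHD6* in mean level. In both mutants the top 3 genes were the same, with 13.7 RPKM for *PRP3*, 12.7 RPKM for *EXPA7* and 11.4 RPKM for *EXPA18* in *bdr1,2,3*, and 13.9, 13.2 and 13.0 RPKM for them in *fpa*.

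The 8 genes did not vary as one block over the 9 libraries. Among 28 pairs, the Pearson correlation of log2 CPM ran from -0.27 to 0.79 with a median of 0.21, and 22 pairs were positive. The closest pairs were *RSL4* with *PRP1* (0.79), *RHD6* with *EXPA7* (0.76) and *EXPA7* with *EXPA18* (0.70), and the least alike were *RSL4* and *PRP3* (-0.27). *RSL4* (1 count) and *PRP1* (24 counts) both had their lowest value in wild-type replicate 12, and the correlations were not recomputed without it. After the mean of each genotype was removed, the same 3 close pairs stood at 0.60, 0.63 and 0.61, and *LRX1* with *PRP1* at 0.84. *RHD6* with *RSL4*, at 0.51 over all libraries, stood at -0.02 within genotypes, and *RSL4* with *EXPA18*, at -0.15 over all libraries, stood at -0.75, the lowest of the 28 pairs within genotypes. These are descriptions over 9 libraries, which share their depth and scaling between genes. The mean standardized level of the 8 genes was highest in *fpa* replicate 3 (1.46) and *bdr1,2,3* replicate 4 (1.05) and lowest in wild-type replicates 1 (-1.60) and 12 (-1.05).

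Likeness to this mean level was computed for 17575 other genes whose average log2 CPM was 1 or more, and the 10 closest had Pearson correlations of 0.87 to 0.91. They were *ACD1* (0.91), *GATA26* (0.90), *SOT18* (0.89), *ACA9* (0.88), *ABCG19* (0.88), *AIRP1* (0.88), AT4G23510 (0.88), AT4G24140 (0.87), *PME2* (0.87) and *FLS5* (0.87), with Spearman correlations of 0.73 to 0.88. None of them stands in any list used here, and among so many genes and 9 libraries the choice is unsteady: leaving out 1 library kept 1 to 5 of the 10. Genes of tip growth had a median correlation of 0.52 with the mean level (23 genes), the other bHLH factors 0.31 (4 genes), the patterning genes 0.28 (8 genes), the other root markers 0.22 (14 genes), the shoot markers -0.01 (7 genes) and all genes 0.00972.

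The wider root hair pathway was described with 44 further genes in 3 lists, of which 42 were tested (all but *RSL1* and AT2G14760). These lists too were chosen with earlier results of these data known. Of 27 genes of tip growth, which build and steer the growing hair, 4 rose in *bdr1,2,3* and 0 fell in edgeR, where 0.603% of all genes were called higher. In *fpa* 4 rose and 0 fell in edgeR, where 1.28% of all genes were called higher. DESeq2 called 5 of the 27 in *bdr1,2,3* and 9 in *fpa*, where it called 4.02% and 6.48% of all genes. At an unadjusted p under 0.05, edgeR gave 10 of the 27 in *bdr1,2,3* (8 higher) and 14 in *fpa* (12 higher). Of all genes, 15.1% passed that limit in *bdr1,2,3* and 19.8% in *fpa*. The 9 called by DESeq2 in *fpa* include *CSLD3*, a cellulose synthase-like gene. Its *fpa* libraries (49.5, 43.9 and 44.5 CPM) all lay below wild type (56.7, 65.4 and 73.4 CPM), with a log2 fold change of -0.50 and an adjusted p of 0.0682 in edgeR. In *bdr1,2,3* it also lay below all wild-type libraries (-0.42, edgeR adjusted p = 0.161). *SHV3* lay below them in both mutants (-0.49 in *bdr1,2,3* and -0.58 in *fpa*, edgeR adjusted p = 0.23 and 0.109). The median of the 27 tip growth genes on the log2 scale was 0.51 in *bdr1,2,3* and 0.56 in *fpa*. Of 10 patterning genes, which set hair and non-hair cell files before *RHD6* acts, 0 were called in *bdr1,2,3* by either tool, with 0 at an unadjusted p under 0.05 in both. In *fpa* edgeR called *GL3* as higher, and DESeq2 called *GL3* and *EGL3*, a close relative, which had 5.49, 6.27 and 6.71 CPM in *fpa* and 3.62, 3.26 and 3.51 CPM in wild type (edgeR adjusted p = 0.0749). Of 7 other bHLH factors 5 were tested and edgeR called 0 in either mutant, with 2 in *bdr1,2,3* and 3 in *fpa* at an unadjusted p under 0.05. DESeq2 called *RSL2* in *bdr1,2,3* and no bHLH factor in *fpa*, with 2 in *bdr1,2,3* and 3 in *fpa* at an unadjusted p under 0.05. *RSL2* lay above all wild-type libraries in both mutants, with edgeR log2 fold changes of 1.70 in *bdr1,2,3* (adjusted p = 0.0683) and 1.34 in *fpa* (adjusted p = 0.12). Of the 5 tested, 3 had a lower mean than wild type in *bdr1,2,3* and 2 in *fpa*. Of the 21 other root markers edgeR called 0 in either mutant, with 5 in *bdr1,2,3* and 4 in *fpa* at an unadjusted p under 0.05, and DESeq2 called 0 in *bdr1,2,3* and *CASP4* in *fpa*, with 5 in each at that limit. *CASP4* was higher in both mutants, with edgeR log2 fold changes of 0.95 in *bdr1,2,3* (adjusted p = 0.175) and 1.23 in *fpa* (adjusted p = 0.0577). Of the 21 markers, 11 had a lower mean than wild type in *bdr1,2,3* and 10 in *fpa*. Of the 10 shoot markers both tools called 0, with 0 at an unadjusted p under 0.05 in edgeR and 1 in DESeq2 in *fpa*. Beside these lists, edgeR called 2.48% of all genes in *bdr1,2,3* and 3.1% in *fpa*. At an unadjusted p under 0.05 the edgeR share of all genes was 15.1% in *bdr1,2,3* and 19.8% in *fpa*. DESeq2 gave 3367 of 24813 genes in *bdr1,2,3* and 4382 in *fpa* at that limit.

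**Figure D4:**
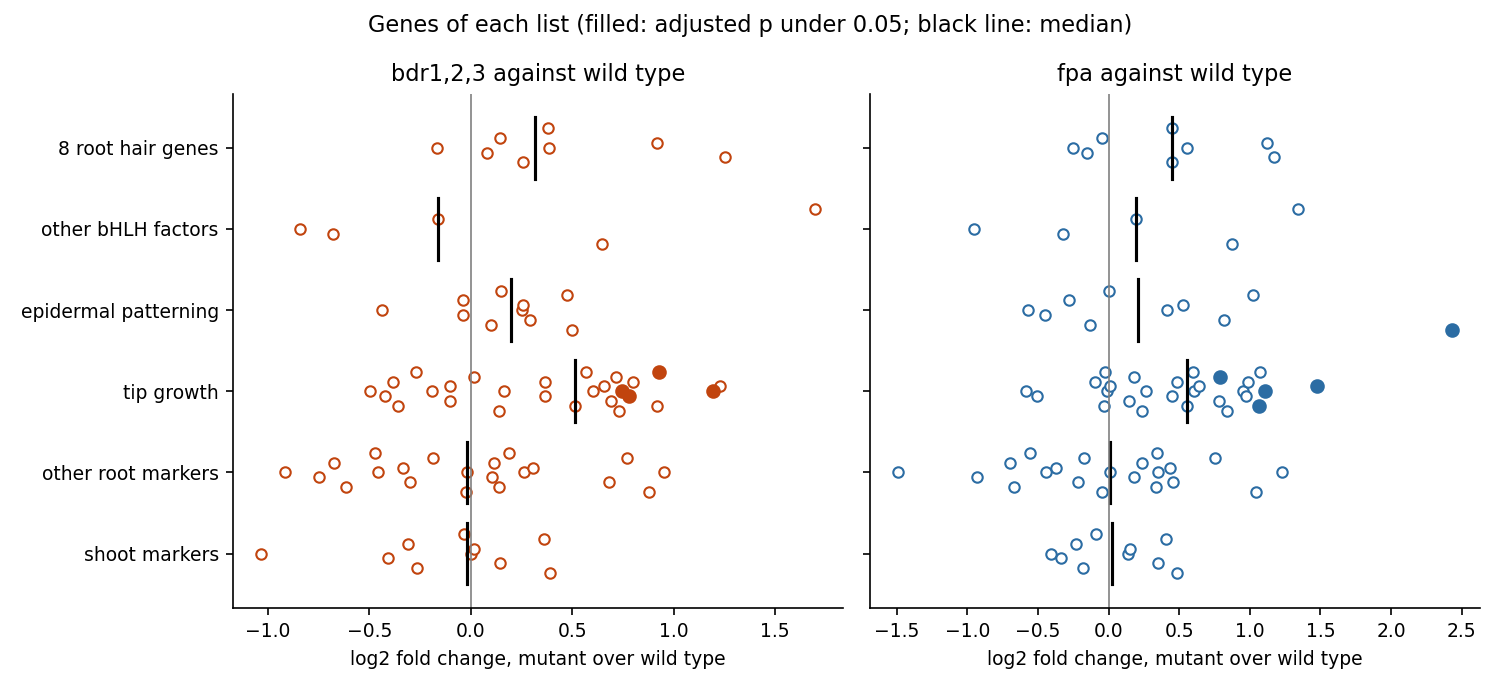
Log2 fold change of each tested gene by list, in *bdr1,2,3* (left) and *fpa* (right) against wild type. Filled points passed an edgeR adjusted p under 0.05 and black lines are list medians; the tip growth list holds 4 filled points on each side, all above 0, and the 8 root hair genes hold none.

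The tip growth genes that rose in *bdr1,2,3* were *RHS15*, *RHS13*, AT4G26010 and *RHS19*. *RHS15*, which RefSeq lists under the symbol *G3Pp2*, had 8.79, 7.16 and 9.49 CPM in *bdr1,2,3*, against 3.31, 3.26 and 4.33 CPM in wild type. *RHS13* had 25.3, 20.6 and 29.8 CPM in *bdr1,2,3*, against 14.6, 14.3 and 15 CPM in wild type. Neither gene's libraries overlapped between these genotypes. The log2 fold change of *RHS15* was 1.2 (SE 0.233, adjusted p = 0.0123) and that of *RHS13* was 0.78 (SE 0.174, adjusted p = 0.0280), both in edgeR. In *fpa* the same genes had 6.12, 7.65 and 6.09 CPM (*RHS15*) and 26.1, 18.9 and 21.5 CPM (*RHS13*), also above all wild-type libraries, with edgeR adjusted p-values of 0.0676 and 0.0794. The call of *RHS15* in *bdr1,2,3* was lost without *bdr1,2,3* replicate 2 (adjusted p = 0.0502) or 7 (0.0529), and that of *RHS13* without wild-type replicate 1 (0.0633) or 5 (0.0923), *bdr1,2,3* replicate 2 (0.0949) or 7 (0.114) or *fpa* replicate 8 (0.0515), all in edgeR.

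The peroxidase genes *RHS19* and AT4G26010 rose in both mutants. *RHS19* had 24.6, 17.2 and 23.9 CPM in *bdr1,2,3*, 30.5, 16.8 and 24.6 CPM in *fpa*, and 9.94, 12.8 and 12 CPM in wild type. AT4G26010 had 27.9, 27.2 and 33.6 CPM in *bdr1,2,3*, 37.5, 28.5 and 25.5 CPM in *fpa*, and 18.0, 15 and 19.4 CPM in wild type. All mutant libraries lay above all wild-type libraries for both genes. The edgeR log2 fold changes of *RHS19* were 0.93 (SE 0.220, adjusted p = 0.0393) in *bdr1,2,3* and 1.06 (SE 0.221, adjusted p = 0.0193) in *fpa*. Those of AT4G26010 were 0.75 (SE 0.174, adjusted p = 0.0362) in *bdr1,2,3* and 0.79 (SE 0.174, adjusted p = 0.0259) in *fpa*. The *bdr1,2,3* call of *RHS19* was lost without wild-type replicate 1 or 5, *bdr1,2,3* replicate 2 or 7 or *fpa* replicate 8, with edgeR adjusted p-values of 0.0667 to 0.163. Its *fpa* call was lost without wild-type replicate 5 or *fpa* replicate 3 or 8 (0.0572 to 0.101, edgeR). The *bdr1,2,3* call of AT4G26010 was lost without wild-type replicate 1 or 5, any *bdr1,2,3* replicate or *fpa* replicate 6 (0.0621 to 0.128, edgeR), and its *fpa* call without wild-type replicate 5 or *fpa* replicate 3 or 6 (0.0520 to 0.127, edgeR).

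In *fpa* the tip growth genes *COW1* and *ADF11* also rose. *COW1*, a phosphatidylinositol transfer protein gene of the Sec14 type, had 7.31, 7.01 and 4.57 CPM in *fpa*, against 3.05, 0.709 and 2.46 CPM in wild type, a log2 fold change of 1.48 (SE 0.361, edgeR adjusted p = 0.0412). In *bdr1,2,3* it had 6.05, 4.50 and 5.36 CPM, also above wild type, with an edgeR adjusted p of 0.105. *ADF11*, an actin depolymerizing factor gene, had 9.29, 5.68 and 8.28 CPM in *fpa*, against 4.30, 2.84 and 3.44 CPM in wild type, a log2 fold change of 1.11 (SE 0.279, edgeR adjusted p = 0.0465). Both calls sat close to the limit. That of *COW1* was lost without each library other than wild-type replicates 1 and 12 (0.0519 to 0.143, edgeR), and that of *ADF11* without each library other than wild-type replicate 1 and *bdr1,2,3* replicate 7 (0.0546 to 0.171, edgeR). Several genes of this list carry RHS names from a screen for root hair genes that itself used the root hair element, and 5 of the 27 windows of the list (18.5%) hold its full consensus.

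**Figure D5:**
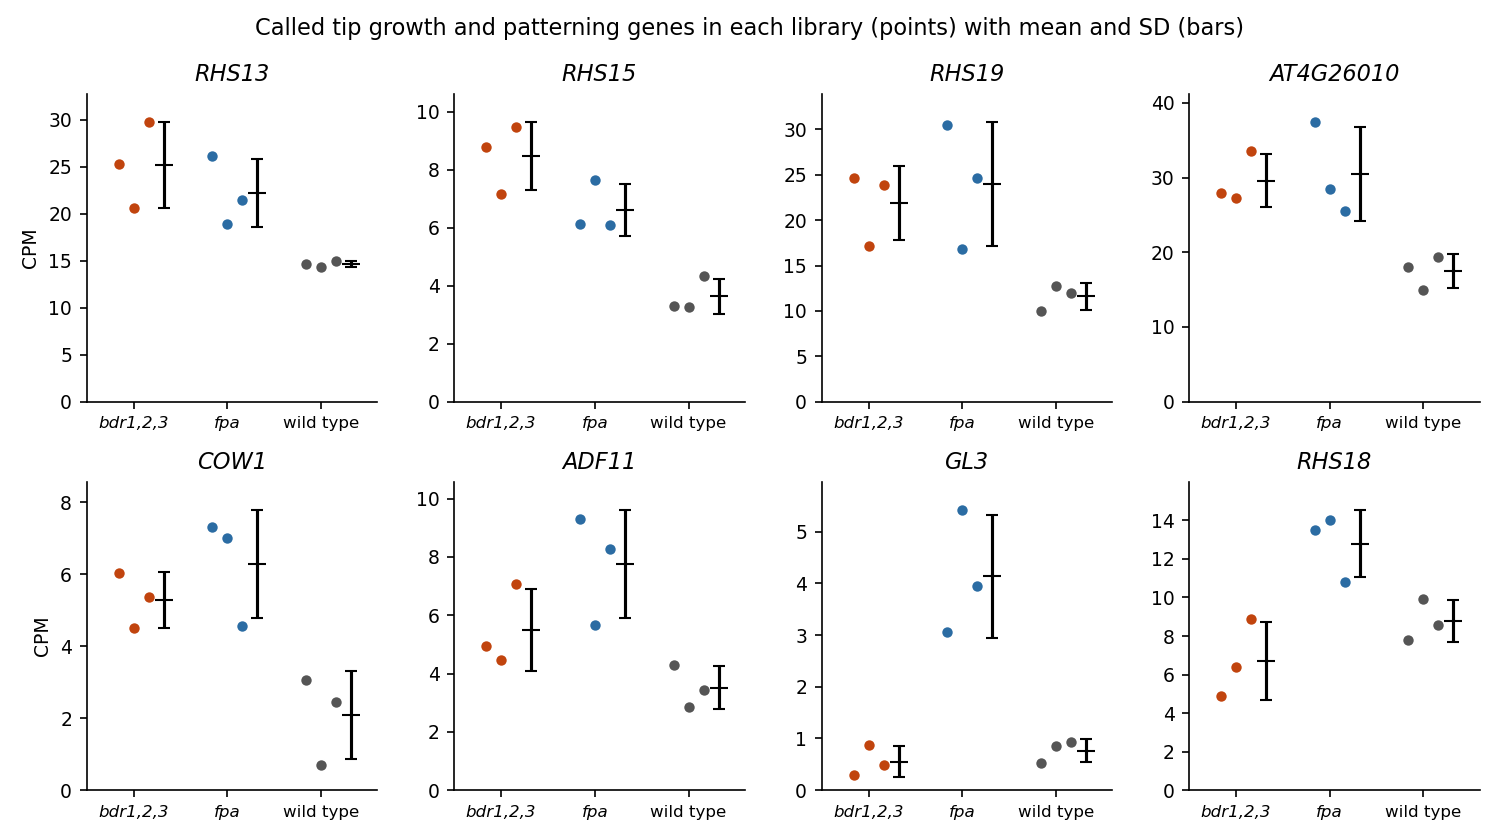
Level of the tip growth and patterning genes called in any comparison (CPM, TMM-scaled, linear axes from 0) in each library, with *bdr1,2,3*, *fpa* and wild type from left to right; points are libraries and bars are mean and SD (n = 3). All mutant points lie above all wild-type points for *RHS13*, *RHS15*, *RHS19*, AT4G26010, *COW1* and *ADF11*, whereas only the *fpa* points do for *GL3* and *RHS18*.

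Among the patterning genes, *GL3*, a bHLH factor gene that favors the non-hair fate in the root and promotes trichomes in the shoot, had 0.300, 0.875 and 0.481 CPM in *bdr1,2,3*, 3.06, 5.42 and 3.95 CPM in *fpa*, and 0.518, 0.851 and 0.934 CPM in wild type. The *fpa* libraries stood apart from all others. The log2 fold change was 2.43 (SE 0.468, edgeR adjusted p = 0.0124) in *fpa* against wild type and -0.44 (SE 0.512, edgeR adjusted p = 0.741) in *bdr1,2,3* against wild type. The *fpa* call was lost without *fpa* replicate 6 (0.0774) or 8 (0.0569) in edgeR, with 6 to 25 counts per library behind the wild-type values.

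Because the study asks how transcription of a gene affects the next gene, the nearest protein-coding gene on the upstream side of each root hair gene was examined. The upstream neighbor lay on the same strand for *EXPA7* (*HPR3*, 473 bp away), *PRP1* (*NP2*, 824 bp away) and *COBL9* (AT5G49280, 1691 bp away), and on the opposite strand for the other 5. Of the 8 neighbors 6 were tested, and edgeR and DESeq2 called 0 of them in either mutant. Over all genes, edgeR called 2.48% in *bdr1,2,3* and 3.1% in *fpa*, and DESeq2 called 4.02% and 6.48%. At an unadjusted p under 0.05 edgeR gave 1 in *bdr1,2,3* and 0 in *fpa*, and DESeq2 gave 2 in *bdr1,2,3* and 0 in *fpa*. In edgeR 15.1% of all genes passed that limit in *bdr1,2,3* and 19.8% in *fpa*, and in DESeq2 3367 of 24813 genes did in *bdr1,2,3* and 4382 in *fpa*. *HPR3*, the closest tandem neighbor, had 5.23, 4.74 and 3.78 CPM in *bdr1,2,3*, 4.93, 2.07 and 2.71 CPM in *fpa*, and 3.68, 5.96 and 4.56 CPM in wild type, with overlapping libraries. *NP2* had 3.00, 1.19 and 1.44 CPM in *bdr1,2,3*, 1.30, 2.82 and 2.66 CPM in *fpa*, and 1.86, 0.993 and 1.53 CPM in wild type. AT5G49280 had 4.16, 11.5 and 7.56 CPM in *bdr1,2,3*, 7.76, 6.11 and 5.19 CPM in *fpa*, and 6.06, 10.6 and 5.86 CPM in wild type, so all 3 tandem neighbors overlapped wild type.

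Of the opposite-strand neighbors, AT1G66460, a protein kinase family gene upstream of *RHD6*, had 19, 31 and 10 counts in *bdr1,2,3*, 3, 10 and 10 counts in *fpa*, and 8, 0 and 0 counts in wild type, and its edgeR adjusted p was 0.219 in *bdr1,2,3* and 0.504 in *fpa*. Scaled to library totals, its *bdr1,2,3* libraries lay above wild type. *STZ*, a zinc finger factor gene upstream of *RSL4*, had 27.7, 15.2 and 15.3 CPM in *bdr1,2,3*, 8.95, 18.2 and 7.99 CPM in *fpa*, and 13.5, 14.5 and 8.78 CPM in wild type, again with *bdr1,2,3* above all wild-type libraries, and edgeR adjusted p-values of 0.331 in *bdr1,2,3* and 0.964 in *fpa*. Of all genes tested, 9.45% likewise had every *bdr1,2,3* library above wild type. AT1G12030, upstream of *LRX1*, had 2.96 to 4.76 CPM in *bdr1,2,3*, 5.15 to 6.40 CPM in *fpa* and 3.55 to 5.33 CPM in wild type, with edgeR adjusted p-values of 0.820 in *bdr1,2,3* and 0.434 in *fpa*. *RR20*, upstream of *PRP3*, and AT1G62978, which overlaps the 5′ end of *EXPA18* by 46 bp, had 0 counts in all 9 libraries. *EXPA7* overlaps AT1G12570 on the opposite strand by 23 bp at its other end, and the strand setting of the counting is not given in the sources used here, so reads in that stretch cannot be assigned.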

How the data were processed

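The authors aligned 49 bp single-end reads to TAIR10 with TopHat2 2.0.8, kept unique alignments (SAMtools 1.2) and deposited raw counts per gene from featureCounts, also per the labels. Their normalized table lacks wild-type replicate 12 and was not used. Strand setting is not given in the sources used here, and labels and paper differ on growth temperature, the *bdr2* stock and the library kit.

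The main test was the two-sided quasi-likelihood test of edgeR 4.0.16 (R 4.3.3), with filterByExpr and TMM. All 9 libraries entered 1 model, and p-values of 20413 genes were adjusted by the Benjamini-Hochberg method, with calls under 0.05. SE is the size of the log2 fold change over the square root of F. CPM uses the TMM-scaled totals, and likeness log2(CPM + 0.5). Depth, at 8676610 counts or more per library, limits the transcription factor genes most. The fit was tested on simulated data. Positions, exon lengths and sequences come from RefSeq TAIR10.1 (98.5% of nuclear identifiers matched), read in Python 3.11.15.

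The 8 genes and the lists were chosen with earlier results of these data known. Named are the 8 genes, called list genes (at most 6 per list and comparison), the 10 genes of highest likeness, the upstream neighbors and the mutated genes. AT1G12570, *CASP4*, *CSLD3*, *EGL3*, *RSL1*, *RSL2*, *SHV3* and AT2G14760 were named after their values were seen. Alternatives were DESeq2 1.42.0, RLE factors, other filters, only the 2 genotypes, an adjusted p under 0.01, nuclear genes and each library left out; DESeq2 without wild-type replicate 12 and the list counts were added after seeing the data.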

Additional observations from a re-analysis of the deposited data

Results flagged for a closer look

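The effects of the 2 mutants, each against wild type, differed past the threshold for 2 of 42 tested genes of the pathway lists and for 0 of the 8 root hair genes (0 at an unadjusted p under 0.05, and 0 called by DESeq2), by the direct edgeR test of *bdr1,2,3* against *fpa*. In that comparison 3.54% of all genes were called, so the count of 2 is near the background and shows nothing particular to the pathway. *GL3* had 0.300, 0.875 and 0.481 CPM in *bdr1,2,3* and 3.06, 5.42 and 3.95 CPM in *fpa*, a log2 fold change of -2.87 (SE 0.469, edgeR adjusted p = 0.00295). It passed without each library in turn. *RHS18*, a tip growth gene, had 4.89, 6.37 and 8.87 CPM in *bdr1,2,3* and 13.5, 14 and 10.8 CPM in *fpa*, a log2 fold change of -0.94 (SE 0.228, edgeR adjusted p = 0.0347). Wild type, at 7.77, 9.93 and 8.59 CPM, overlapped *bdr1,2,3* and lay below *fpa*, and *RHS18* lost its call without *bdr1,2,3* replicate 2 or 4 or any *fpa* replicate (0.0585 to 0.150, edgeR).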

How the results depend on the processing

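The count of 0 of the 8 root hair genes held in all 3 comparisons under all 17 alternatives, with a smallest adjusted p of 0.0539. With at least 10 counts in every library only 6 of the 8 were tested. Signs turned in 19 of 402 recomputed values, all with 1 library left out. In *bdr1,2,3* against wild type, the alternatives gave log2 fold changes of -0.0391 to 0.58 for *EXPA18*, -0.0871 to 0.32 for *COBL9* and -0.00979 to 0.48 for *LRX1*. In *fpa* against wild type they gave -0.21 to 0.19 for *COBL9*, -0.55 to 0.0806 for *LRX1* and -0.45 to 0.0337 for *PRP3*. In *bdr1,2,3* against *fpa* they gave -0.16 to 0.46 for *RHD6*, -0.45 to 0.0577 for *RSL4*, -0.34 to 0.17 for *EXPA7*, -0.0115 to 0.23 for *COBL9*, -0.33 to 0.0481 for *PRP1* and -0.20 to 0.28 for *PRP3*. The summed level of the 8 genes over wild type was 1.13 in *bdr1,2,3* and 1.16 in *fpa* with median ratio size factors.

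Calls among the 44 pathway genes depended on the setting. Against 4 calls in *bdr1,2,3*, DESeq2 gave 6, no filter on low counts 5, only the 2 genotypes 2 and an adjusted p under 0.01 gave 0, and leaving out 1 library gave 0 to 4. Against 5 calls in *fpa*, DESeq2 gave 11 (8 without wild-type replicate 12), no filter on low counts gave 7, at least 10 counts in every library gave 2, only the 2 genotypes 2 and an adjusted p under 0.01 gave 0, and leaving out 1 library gave 1 to 6. Against 2 calls in *bdr1,2,3* against *fpa*, only the 2 genotypes gave 3, at least 10 counts gave 1 and an adjusted p under 0.01 gave 1, and leaving out 1 library gave 1 to 2. Of the 10 genes of highest likeness, 1 to 5 stayed with 1 library left out. Over all genes, DESeq2 called 882, 1421 and 1137 against 507, 633 and 722 in edgeR, in the order *bdr1,2,3*, *fpa* and *bdr1,2,3* against *fpa*. The causes of these shifts were not tested. No paired analysis was possible because the genotypes share no replicate numbers.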
